A study of Mus musculus with 8 samples.

Results

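The genes described here encode feedback inhibitors of the RAS-ERK pathway in DC2.4, a line of mouse dendritic cells: the dual-specificity phosphatases Dusp1, Dusp2, Dusp4, Dusp5, Dusp6 and Dusp7, the Sprouty genes Spry1, Spry2 and Spry4, and the Sprouty-related gene Spred1. They were chosen by symbol, with earlier results of these data known, and all 10 were found among the 24054 rows of the deposited table of all genes. A row was tested where its value reached 0.5 in at least 2 of the 8 libraries. Of the 10 genes, 9 passed this filter, as did 11455 rows in all, and Spry1 did not.

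RNA was sequenced from DC2.4 cells, a line labelled as C57BL/6 mouse dendritic cells, in 4 groups of 2 libraries. HDM cells were given an extract of house dust mite, Grass cells an extract of timothy grass and Cat cells an extract of cat hair, each at 250 PNU/ml for 4 h, where PNU stands for protein nitrogen units. Untreated cells were given no extract, and the labels name no vehicle for them. All 4 groups were first kept for 4 h in medium with 0.1% fetal bovine serum, in place of the 10% used for growth, so the Untreated cells were in low serum as well. The labels give no further time for the Untreated cells, so they may have been collected earlier than the extract groups. Such a difference in time cannot be told apart from the extracts. All data come from 1 cell line. The series' design text calls the 2 samples of a group independent without naming separate cultures, so the p-values cover the spread between libraries, which may be technical.

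ERK is the last kinase of a cascade that runs from surface receptors through RAS, RAF and MEK. Active ERK switches on transcription of its own inhibitors, which is why their transcripts are often used as a readout of the pathway. DUSP phosphatases remove the activating phosphates from ERK, p38 or JNK, whereas Sprouty and Spred proteins act further upstream, between the receptor and RAF. In dendritic cells and macrophages these kinases carry signals from growth factor and microbial receptors, and Dusp1 is known there as a brake on p38 and JNK.

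The start regions of 4 of these genes are shown, because they carry the sequence motifs found in the group (Dusp1, Dusp5 and Dusp2) or belong to the gene with the largest fall with HDM (Dusp7). They are RefSeq sequences of build GRCm38.p6, from 250 bases before to 50 bases after the start of the gene, and capitals mark the motif matches.

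Dusp1, chr17:26508423-26508722, minus strand: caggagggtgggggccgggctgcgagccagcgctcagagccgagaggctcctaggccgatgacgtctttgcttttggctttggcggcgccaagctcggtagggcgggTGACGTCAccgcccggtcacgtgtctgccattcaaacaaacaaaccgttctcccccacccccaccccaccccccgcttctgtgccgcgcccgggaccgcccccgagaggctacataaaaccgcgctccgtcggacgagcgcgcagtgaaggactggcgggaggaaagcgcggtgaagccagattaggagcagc

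Dusp5, chr19:53528895-53529194, plus strand: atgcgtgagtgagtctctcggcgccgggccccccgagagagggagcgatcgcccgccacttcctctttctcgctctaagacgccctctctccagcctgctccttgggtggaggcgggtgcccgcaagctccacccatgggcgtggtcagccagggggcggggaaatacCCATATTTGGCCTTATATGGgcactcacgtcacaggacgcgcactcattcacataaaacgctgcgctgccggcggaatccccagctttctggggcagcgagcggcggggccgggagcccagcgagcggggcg

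Dusp2, chr2:127335909-127336208, plus strand: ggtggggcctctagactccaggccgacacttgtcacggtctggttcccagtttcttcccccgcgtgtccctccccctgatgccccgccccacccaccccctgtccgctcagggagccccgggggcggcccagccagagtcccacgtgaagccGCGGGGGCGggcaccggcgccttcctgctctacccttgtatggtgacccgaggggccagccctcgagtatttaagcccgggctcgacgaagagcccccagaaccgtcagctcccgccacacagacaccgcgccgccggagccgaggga

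Dusp7, chr9:106368382-106368681, plus strand: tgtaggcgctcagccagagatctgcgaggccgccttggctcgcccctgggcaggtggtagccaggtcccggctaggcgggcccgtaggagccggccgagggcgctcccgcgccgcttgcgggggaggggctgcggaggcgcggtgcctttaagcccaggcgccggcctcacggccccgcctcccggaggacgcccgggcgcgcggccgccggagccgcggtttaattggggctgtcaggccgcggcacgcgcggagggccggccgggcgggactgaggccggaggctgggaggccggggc

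RefSeq start regions of 8 of the 10 genes were used, and Dusp4 and Spry4 were left out of the search, so nothing is said of their motifs. Both strands of the 8 were searched for the cyclic AMP response element TGACGTCA, the AP-1 element TGANTCA, the ETS element CCGGAAG, the EGR element GCGNGGGCG and the CArG box, to which the serum response factor binds. Dusp1 held the cyclic AMP response element from base -143, and 1.79% of 32851 mouse start regions of this length held it. Dusp5 held 2 adjacent CArG boxes, from bases -82 and -72, and 1.63% of start regions held at least 1. Dusp2 held the EGR element from base -98, against 5.55% of start regions. Dusp6, Dusp7, Spry1, Spry2 and Spred1 held none of these letters in the window, AP-1 and ETS elements being present in 7.81% and 8.86% of all start regions. The matches describe letters and not bound sites.

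Depth was 31.94 to 43.32 M reads per library, and the 10 most abundant rows took 4.71% to 4.94% of the reads. The files give a depth-scaled value, in which a library's reads were multiplied by 1 constant, and all levels below are in that unit. Of 16 dendritic cell markers 12 passed the filter, but the class II gene H2-Ab1 and the lectin gene Ly75 had 0 reads in every library. Flt3 and Clec9a were below the filter, and in Untreated cells Itgax averaged 2.58, Zbtb46 1.19, Batf3 3.5 and Xcr1 0.681. Ptprc, Itgam, Spi1 and Cd74, at 327, 269, 220 and 204, carried most of the summed level. Of the macrophage markers Csf1r and Cd68 were abundant, Mrc1 had at most 4 reads and Marco at most 1 in any library, and Adgre1 had no row. The summed dendritic markers were at 1010 to 1050 in the extract libraries and 1110 to 1140 in the Untreated libraries. The summed macrophage markers, nearly all Csf1r and Cd68, were at 926 to 950 in the extract libraries and 980 to 989 in the Untreated libraries. The values of all rows summed to 975215 to 1001836 in the extract libraries and to 1032128 and 1047501 in the Untreated libraries. Such sums therefore depend on the scaling. Of the 12 tested dendritic markers 3 were lower and 1 higher with HDM, 4 were lower with Grass and 4 were lower with Cat, with median log2 fold changes of 0.04, -0.02 and -0.01. Shares of all rows called are given below. Ptprc, which encodes CD45, fell by 0.27 in HDM, 0.34 in Grass and 0.27 in Cat libraries on the log2 scale, and the myeloid factor gene Irf8 fell by 0.53, 0.53 and 0.18 in the same order, while the costimulatory gene Cd40 rose with HDM (0.38, adjusted p = 0.028). Markers of neutrophils, lymphocytes and stromal or epithelial cells summed to at most 0.0527, 1.12 and 0.158. What part these shifts have in the results below was not tested. In a bulk sample, fewer cells of a given state and less RNA per cell cannot be told apart.

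Corrected for the length of the longest coding transcript (GENCODE M21), Spred1 was the most abundant of the 10 in Untreated cells, at 146 per kb. Dusp4 at 83.5, Dusp6 at 70.8 and Dusp7 at 41.7 per kb followed. Spry2 at 11.1, Dusp1 at 10.2, Dusp2 at 8.3, Dusp5 at 5.97 and Spry4 at 2.54 per kb were lower. The order of these levels says nothing of protein. Spry1 had 0 reads in 7 libraries and 1 read in Grass 2, where 3 reads would be a value of 0.0677 to 0.0923 depending on the library, and Spry1 has no further result.

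Most of these feedback genes were lower after 4 h with HDM or Grass, and fewer passed the test with Cat. With HDM 8 of 9 tested genes fell and with Grass 8 of 9 fell, Dusp2 being the exception both times, and with Cat Dusp1, Dusp4, Dusp7 and Spred1 fell. The 2 largest falls among the 9 were in Dusp7, which fell by 41.3% with HDM and fell by 37.8% with Grass, and in Spry4, which fell by 40.2% with HDM and fell by 42.3% with Grass. Here a gene fell or rose where limma's adjusted p was under 0.05, on log2 of the value plus 0.1 and adjusted over all rows tested by the Benjamini-Hochberg method. Among all rows tested, 21.9% were lower and 9.22% higher with HDM, 25.4% lower and 10.4% higher with Grass, and 13.6% lower and 4.34% higher with Cat.

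No tested member rose with any extract: limma called 0 higher in each comparison, as did edgeR and DESeq2, and at an unadjusted p under 0.05 the genes higher were 0 with HDM, 0 with Grass and 1, Dusp2, with Cat. For HDM the median log2 fold change of the 9 genes was -0.32, for Grass -0.37 and for Cat -0.15. Over all rows the medians were -0.03, -0.04 and -0.03. All 6 extract libraries lay below both Untreated libraries for 6 of the 9, namely Dusp1, Dusp4, Dusp6, Dusp7, Spry2 and Spred1, and for 25.2% of all rows tested. The 3 comparisons share the 2 Untreated libraries, so they are not separate tests of the same fall.

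The balance of calls over all rows depends on the scaling, and that of the set does so less. With TMM factors 14.2% of rows were lower with HDM and 13.4% higher, with upper-quartile factors 12.9% and 14.5%, and with library totals alone 9.36% and 20.5%. The number of the 9 genes lower with HDM was 7 under each of these. With Grass the library totals alone left 10.7% of rows lower and 24.2% higher, with 7 of the 9 genes lower. With Cat they left 6.37% of rows lower and 11.4% higher, with 4 of the 9 genes lower and Dusp2 higher.

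**Figure D1:**
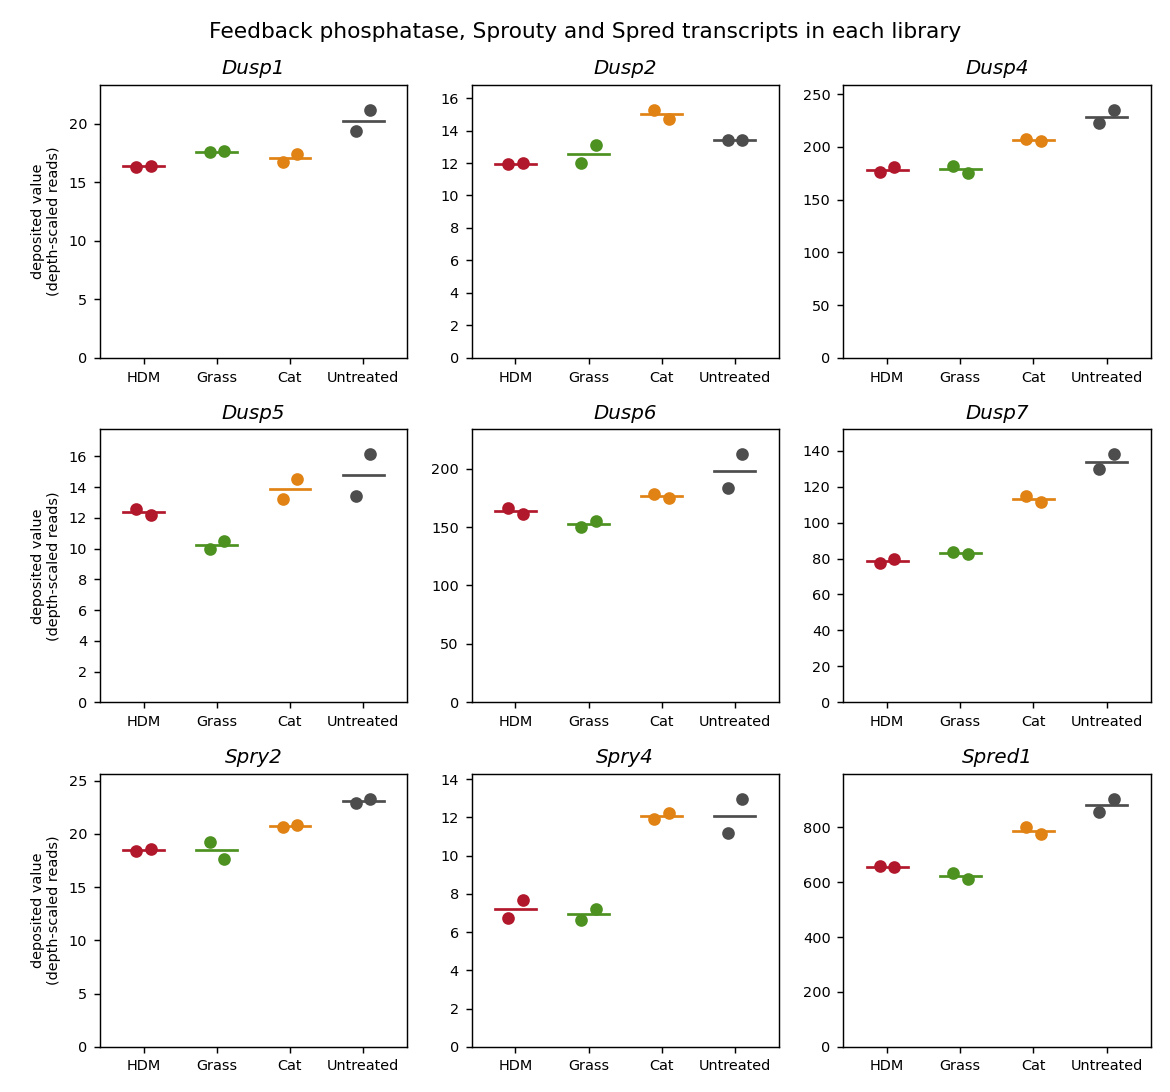
Deposited depth-scaled value (y axis, from 0) of each of the 9 tested genes in the HDM, Grass, Cat and Untreated groups (x axis), with 1 point per library and a line at the mean of 2 libraries. In Dusp7 the HDM and Grass points lie between 77.4 and 83.8, the Cat points at 115 and 112, and the Untreated points at 129.8 and 138, while in Spry4 the Cat points lie within the Untreated range.

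Dusp1 encodes a nuclear phosphatase that is induced within minutes of stress or mitogens. Its values were 16.3 and 16.4 in the HDM libraries, 17.6 and 17.7 in the Grass libraries and 16.8 and 17.5 in the Cat libraries, against 19.4 and 21.2 in the Untreated libraries, from 533 to 779 reads each. Every extract library lay below both Untreated libraries, and the extract libraries spanned 16.3 to 17.7. Dusp1 was lower in HDM cells (log2 fold change -0.31, SE 0.06, limma adjusted p = 0.00057), Grass cells (-0.20, adjusted p = 0.016) and Cat cells (-0.24, adjusted p = 0.0083). The Grass call ended with all 4 other scalings, with DESeq2 (adjusted p = 0.25), without Grass 1 (adjusted p = 0.084), without Grass 2 (0.072) and without Untreated 2, where the change was -0.13 (adjusted p = 0.19). The Cat call ended with DESeq2 (adjusted p = 0.15), with limma without trend and robust settings (0.052), without Cat 1 (-0.21, 0.087) and without Untreated 2 (-0.18, 0.12).

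Dusp2 encodes a nuclear phosphatase found mostly in activated blood cells. Its values were 11.96 and 11.97 in the HDM libraries, 11.99 and 13.1 in the Grass libraries and 15.3 and 14.7 in the Cat libraries, against 13.4 and 13.4 in the Untreated libraries. The Cat libraries were thus above, and the HDM and Grass libraries below, a pair of nearly equal Untreated libraries. No change against Untreated passed the test: the log2 fold change was -0.17 with HDM (95% interval -0.31 to -0.02, adjusted p = 0.083), -0.10 with Grass (-0.25 to 0.05, adjusted p = 0.31) and 0.16 with Cat (0.01 to 0.31, adjusted p = 0.13). With library totals alone as the scaling, Dusp2 was higher with Cat (0.21, adjusted p = 0.04) and its value with Grass was -0.01. The Grass value was -0.03 without Grass 1.

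Dusp4 encodes a nuclear phosphatase of ERK and JNK and was the most abundant phosphatase transcript per kb among these genes. Its values were 176 and 181 in the HDM libraries, 182 and 175 in the Grass libraries and 208 and 206 in the Cat libraries, against 222 and 235 in the Untreated libraries. The HDM and Grass libraries overlapped each other, the Cat libraries stood between them and the Untreated ones, and no library crossed from an extract group into the Untreated range. Dusp4 was lower in HDM cells (-0.36, SE 0.03, limma adjusted p = 2.8e-09), Grass cells (-0.35, adjusted p = 3.1e-09) and Cat cells (-0.15, adjusted p = 0.002). The Cat value was -0.09 with library totals alone (adjusted p = 0.04), and its call ended with limma without trend and robust settings (adjusted p = 0.094).

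Dusp5 encodes a nuclear phosphatase selective for ERK. Its values were 12.6 and 12.2 in the HDM libraries, 9.96 and 10.5 in the Grass libraries and 13.2 and 14.5 in the Cat libraries, against 13.4 and 16.1 in the Untreated libraries. The Grass libraries were the lowest, the Cat and Untreated libraries overlapped, and the 2 Untreated libraries lay 0.27 apart on the log2 scale. Dusp5 fell with Grass (-0.52, SE 0.08, limma adjusted p = 2.2e-05) and with HDM (-0.24, adjusted p = 0.027), and did not pass with Cat (-0.09, 95% interval -0.26 to 0.09, adjusted p = 0.53).

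The HDM call of Dusp5 was close to the threshold. It ended with all 4 other scalings, with no filter (adjusted p = 0.065), with edgeR and TMM factors (0.06), with DESeq2 (0.24), with limma without trend and robust settings (0.12) and with only the 4 libraries compared (0.054). It also ended without HDM 1 (-0.27), HDM 2 (-0.22) or Untreated 2 (-0.11), and without Untreated 1 the change was -0.38. An exon of AC137853.2 overlaps Dusp5 on the opposite strand, and the strand setting of the counting is not given in the sources used here, so reads of the pair cannot be told apart.

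Dusp6 encodes a cytoplasmic phosphatase selective for ERK, widely used as a marker of ERK output. Its values were 166 and 161 in the HDM libraries, 150.1 and 155 in the Grass libraries and 178 and 175 in the Cat libraries, against 184 and 212.3 in the Untreated libraries. Every extract library was below both Untreated libraries, but these lay 0.21 apart on the log2 scale. Dusp6 fell with HDM (-0.27, SE 0.06, limma adjusted p = 0.011) and with Grass (-0.37, adjusted p = 0.002), and did not pass with Cat (-0.16, 95% interval -0.305 to -0.0227, adjusted p = 0.11). The HDM value was -0.17 without Untreated 2, and its call ended without HDM 2 (-0.25). With Cat Dusp6 was at -0.27 without Untreated 1 and at -0.06 without Untreated 2. These fits keep 1 library in a group, and for Dusp6 against Untreated only their effect sizes are given. Adjusted p-values given elsewhere for fits that leave out a library rest on such a group too.

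Dusp7 encodes the second cytoplasmic ERK-selective phosphatase of the set. Its values were 77.4 and 79.7 in the HDM libraries, 83.8 and 82.6 in the Grass libraries and 115 and 112 in the Cat libraries, against 129.8 and 138 in the Untreated libraries, from 2591 to 4731 reads each. The 4 groups did not overlap, and the order was HDM, Grass, Cat and Untreated from low to high, although the difference between HDM and Grass did not pass the test. Dusp7 was lower in HDM cells (-0.77, SE 0.04, limma adjusted p = 2.7e-14), Grass cells (-0.68, adjusted p = 1.3e-13) and Cat cells (-0.24, adjusted p = 2.8e-05), and all 3 calls held under each of the 22 alternatives tried. In its start region, shown above, none of the 5 motifs was found.

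**Figure D2:**
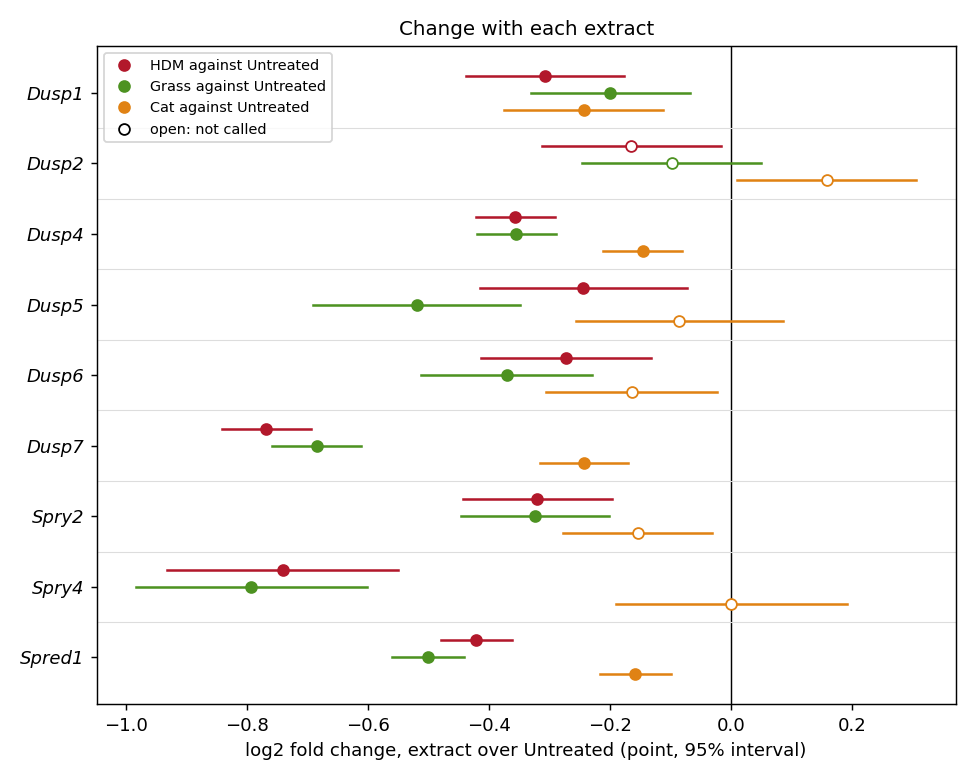
Log2 fold change of each tested gene with HDM, Grass and Cat over Untreated (x axis, point with its 95% interval from limma), genes down the page and filled points for calls. The HDM and Grass points of Dusp7 and Spry4 lie between -0.68 and -0.79, and the Cat point lies to the right of both other points in each gene but Dusp1.

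Sprouty proteins are membrane-associated inhibitors of receptor tyrosine kinase signalling to RAS and RAF. Spry2 values were 18.4 and 18.6 in the HDM libraries, 19.2 and 17.7 in the Grass libraries and 20.7 and 20.8 in the Cat libraries, against 22.9 and 23.3 in the Untreated libraries. The HDM libraries lay inside the range of the Grass libraries, with the Cat and Untreated libraries above them in turn. Spry2 fell with HDM (-0.32, SE 0.06, limma adjusted p = 0.00018) and with Grass (-0.32, adjusted p = 0.00012), and did not pass with Cat (-0.15, 95% interval -0.28 to -0.03, adjusted p = 0.076).

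Spry4 encodes another Sprouty protein and had the lowest level per kb of the tested genes. Its values were 6.72 and 7.66 in the HDM libraries, 6.64 and 7.22 in the Grass libraries and 11.9 and 12.2 in the Cat libraries, against 11.2 and 13.0 in the Untreated libraries, from 249 to 445 reads each. The libraries formed 2 separate levels, HDM with Grass and Cat with Untreated. Spry4 fell with HDM (-0.74, SE 0.09, limma adjusted p = 8.5e-07) and with Grass (-0.79, adjusted p = 2.6e-07). With Cat the log2 fold change was 0.00 with a 95% interval of -0.19 to 0.19 (adjusted p = 1.0), so a change of the size seen with HDM or Grass lay outside the interval, while smaller ones lay inside it.

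Spred1 encodes a membrane protein that brings the RAS-inactivating protein neurofibromin to RAS. Its values were 658 and 656 in the HDM libraries, 632 and 612 in the Grass libraries and 802 and 775 in the Cat libraries, against 855 and 904 in the Untreated libraries, from 21320 to 30998 reads each. The 4 groups did not overlap, and Grass was the lowest. Spred1 was lower in HDM cells (-0.42, SE 0.03, limma adjusted p = 2.3e-11), Grass cells (-0.50, adjusted p = 1.1e-12) and Cat cells (-0.16, adjusted p = 0.00036). The Cat value was -0.10 with library totals alone (adjusted p = 0.0074), and its call ended with limma without trend and robust settings (adjusted p = 0.079). The deposited description of the row includes the words related sequence. That wording alone does not show that the row holds reads of a copy, which was not tested.

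The extracts were then set against each other, which tests whether their effects against the shared Untreated libraries differ. Between HDM and Grass no difference passed among the 9 genes in the fit of all 8 libraries: limma called 0 higher and 0 lower with HDM, edgeR and DESeq2 likewise 0, and 2 were higher and 1 lower at an unadjusted p under 0.05. Over all rows 1.69% were higher and 0.62% lower with HDM than with Grass. The widest difference among the 9 was in Dusp5, at 12.6 and 12.2 in the HDM libraries against 9.96 and 10.5 in the Grass libraries (0.28, 95% interval 0.105 to 0.447, adjusted p = 0.088). For Dusp7 the difference was -0.08 (-0.16 to -0.01, adjusted p = 0.28) and for Spred1 0.08 (0.02 to 0.14, adjusted p = 0.18). Fitted with only the 4 HDM and Grass libraries, Dusp5, Dusp6 and Spred1 were higher with HDM (adjusted p = 0.023, 0.033 and 0.029), and likewise without Untreated 1 (0.019, 0.031 and 0.032) or without Untreated 2 (0.021, 0.032 and 0.032).

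Cat stood apart from both. HDM was lower than Cat in 5 of the 9 genes, Dusp2, Dusp4, Dusp7, Spry4 and Spred1, and higher in 0, against 4.82% of all rows lower and 2.94% higher. Grass was lower than Cat in 6 of the 9, the same 5 and Dusp5, and higher in 0, against 8.23% of all rows lower and 3.58% higher. Spry4 differed most, by -0.74 for HDM against Cat (SE 0.09, limma adjusted p = 2.8e-06) and -0.79 for Grass against Cat (adjusted p = 1.2e-06), with the 4 HDM and Grass libraries at 6.64 to 7.66 and the Cat libraries at 11.9 and 12.2. Dusp7 differed by -0.53 (SE 0.04, adjusted p = 5.3e-11) and -0.44 (adjusted p = 2.3e-09), and Spred1 by -0.26 (SE 0.03, adjusted p = 3.5e-07) and -0.34 (adjusted p = 4.8e-09). In these comparisons too, edgeR and DESeq2 called 0 of the 9 higher, and 0 were higher at an unadjusted p under 0.05.

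Some of the nuclear phosphatase genes, but not Dusp1, differed between Cat and another extract as well. Dusp4 differed by -0.21 in both comparisons (SE 0.03, limma adjusted p = 4.3e-05 for HDM and 5.1e-05 for Grass), calls that ended with limma without trend and robust settings (adjusted p = 0.072 and 0.062). Dusp2 differed by -0.32 for HDM against Cat (SE 0.07, adjusted p = 0.004) and -0.26 for Grass against Cat (adjusted p = 0.019). The first of these ended with DESeq2 (0.091) and without Cat 1 (-0.30, 0.072), and the second with DESeq2 (0.22), with limma without trend and robust settings (0.057) and without Grass 1 (-0.19, 0.22), Cat 1 (-0.23, 0.15) or Cat 2 (-0.28, 0.068). Dusp5 differed by -0.43 for Grass against Cat (SE 0.08, adjusted p = 0.00072, and 0.077 with limma without trend and robust settings), and did not pass for HDM against Cat (-0.16, 95% interval -0.33 to 0.01, adjusted p = 0.30). Dusp1 did not pass against Cat, at -0.06 for HDM (95% interval -0.195 to 0.0673, adjusted p = 0.65) and 0.04 for Grass (-0.0866 to 0.175, adjusted p = 0.73).

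Dusp6 and Spry2 did not pass against Cat in the fit of all 8 libraries. Dusp6 differed by -0.11 for HDM (95% interval -0.25 to 0.03, adjusted p = 0.39) and -0.21 for Grass (-0.35 to -0.07, adjusted p = 0.07), although its HDM and Grass libraries were all below its Cat libraries. Both differences passed in the fits without Untreated 1 (adjusted p = 0.0061 for HDM and 6.6e-07 for Grass) or Untreated 2 (0.0063 and 6.9e-07), whose gap in Dusp6 is given above. Spry2 differed by -0.17 in both comparisons (adjusted p = 0.096 for HDM and 0.063 for Grass), and the Grass difference passed without Untreated 1 or Untreated 2 (adjusted p = 0.042 each).

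**Figure D3:**
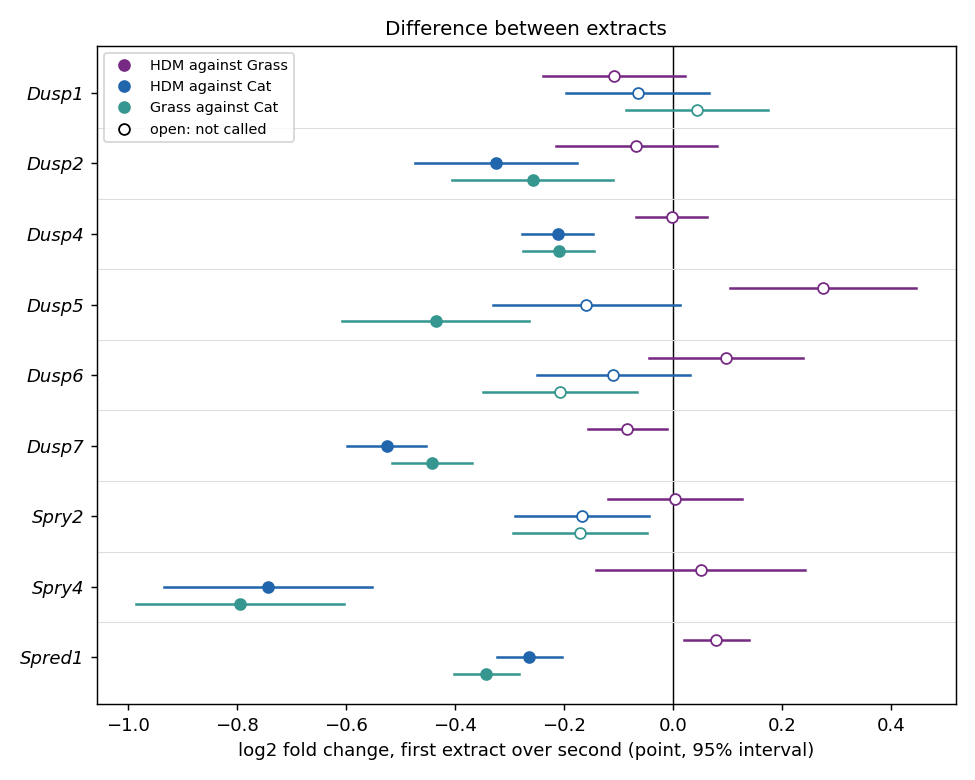
Log2 fold change of each tested gene for HDM over Grass, HDM over Cat and Grass over Cat (x axis, point with its 95% interval from limma), genes down the page and filled points for calls. None of the HDM against Grass points is called, the farthest from 0 being Dusp5 at 0.28, and in the whole plot the farthest points from 0 are those of Spry4 against Cat, at -0.74 and -0.79.

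Across the 8 libraries the 9 genes varied together to unequal degrees, given here as Pearson r of log2 values and only as a description, since the libraries of a group share their treatment. The closest pair was Dusp4 and Dusp7 (r = 0.988), followed by Dusp4 with Spry2 (0.984) and with Spred1 (0.983). Dusp1 and Dusp2 were the least alike (r = 0.188). Dusp2 was closest to Spry4 (r = 0.824), and Dusp5 was closest to Dusp6 (r = 0.922).

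Other genes followed profiles of the same shape, since Pearson r takes no account of the size of a change. Among 10752 rows with a mean value of at least 1, those most like Dusp7 were Efr3b (r = 0.998), at means of 59.0 with HDM, 62.1 with Grass, 101 with Cat and 125 in Untreated cells, then Dab2 (0.997) and Arhgef7 (0.996). Among those most like Spry4 were Pogk (0.989), at means of 145, 143.6, 160.1 and 162.8 in the same order, and Arhgdia (0.984), at 823.1, 821.3, 865.9 and 864.4. Those most like Dusp5 were Mak16 (0.980), at 139.3, 130.1, 148.7 and 152.4, Rabgap1 (0.976), at 52.22, 50.14, 54.27 and 55.89, and Tm2d3 (0.9747), at 18.59, 17.1, 18.79 and 19.78. These rows thus changed less than Spry4 and Dusp5 themselves. Those most like Spred1 were Numb (0.997), Fndc3b (0.997) and the immediate early gene Egr1 (0.996). An r of at least 0.95 was reached by 360 of the 10752 rows for Spred1, 260 for Dusp7, 73 for Spry4 and 21 for Dusp5. More rows thus had the shape of Spred1 or Dusp7 than that of Spry4 or Dusp5.

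Relatives of these genes outside the set went both ways. Of 8 tested other MAP kinase phosphatase and Spred genes, 2 fell with HDM, 3 fell and 2 rose with Grass, and 2 fell with Cat, with medians of -0.02, -0.12 and -0.02 on the log2 scale. Over all rows tested, 21.9% were lower and 9.22% higher with HDM, 25.4% and 10.4% with Grass, and 13.6% and 4.34% with Cat. These shares also stand beside the lists below, and whether a list differs from them was not tested. Dusp3, a phosphatase that is not induced as an early gene, averaged 151 ± 0.34 with HDM, 148 ± 1.9 with Grass and 154.5 ± 0.11 with Cat, against 179 ± 6.0 in Untreated cells (SD, n = 2 each, as for all means below), and fell by 0.24, 0.27 and 0.21 (each with an SE of 0.03), the Grass value being -0.18 with library totals alone. Spred3 fell with Grass (-0.34, SE 0.08, limma adjusted p = 0.0025) and Cat (-0.31, adjusted p = 0.011), calls that ended with DESeq2 (adjusted p = 0.08 and 0.16), without Grass 2 (0.058) and without Cat 1 (0.14). Dusp10, which acts on p38 and JNK, rose with Grass, to 2.53 ± 0.035 against 1.49 ± 0.24 in Untreated cells (0.73, SE 0.18, limma adjusted p = 0.0024). With HDM Dusp10 did not pass (0.41, limma adjusted p = 0.087), and it was at 0.56 without Untreated 2. The number lower with Grass was 1 without Grass 2 and 1 with DESeq2, the number lower with HDM 1 without HDM 2, the number lower with Cat 1 without Cat 1, and the number higher with Grass 1 without Grass 1 or Untreated 1.

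Genes of the RAS-ERK cascade itself moved by small amounts. Of 19 tested, 8 fell and 1 rose with HDM, 10 fell and 1 rose with Grass, and 6 fell and 1 rose with Cat, with medians of -0.07, -0.11 and -0.05. The RAS gene Nras averaged 385 ± 5.1 with HDM, 380.3 ± 6.0 with Grass and 391 ± 10.3 with Cat, against 426 ± 12 in Untreated cells, and fell by 0.15, 0.16 and 0.12 (each with an SE of 0.03). Rps6ka3, which encodes an ERK-activated kinase, fell by 0.20, 0.23 and 0.16 (each with an SE of 0.04). The gene that rose was the scaffold gene Ksr1, by 0.55 with HDM, 0.58 with Grass and 0.36 with Cat (each with an SE of 0.09). The falls are small enough to depend on the scaling: with library totals alone 2 fell with HDM and 4 with Grass while 3 rose with each, Nras no longer passed with HDM (adjusted p = 0.063), and Rps6ka3 was at -0.12 with HDM. With HDM 5 fell without HDM 2. With Cat 2 fell without Cat 2, where Nras and Rps6ka3 no longer passed (adjusted p = 0.11 and 0.087), and 1 fell with limma without trend and robust settings. Without Cat 1 the Cat call of Ksr1 ended (adjusted p = 0.05), as with DESeq2 (0.068), and without Untreated 2 that of Rps6ka3 (-0.11, adjusted p = 0.053).

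Genes of the JNK and p38 cascades, on whose kinases Dusp1 acts, also went both ways. Of 13 tested genes, 2 fell and 2 rose with HDM, 4 fell and 2 rose with Grass, and 1 fell and 1 rose with Cat. The shares of all rows tested were 21.9% lower and 9.22% higher with HDM, 25.4% and 10.4% with Grass, and 13.6% and 4.34% with Cat. Whether this list differs from them was not tested. Map3k1, an upstream kinase of JNK, fell by 0.29, 0.22 and 0.24 (SE 0.03 each; Grass -0.13 with library totals alone), and Map2k6, an activator of p38, rose by 0.32 with HDM and 0.33 with Grass (each with an SE of 0.07) and was at 0.10 with Cat (adjusted p = 0.40). Mapkapk2, a p38 target kinase, fell with Grass (-0.18, SE 0.03, and -0.09 with library totals alone) and with HDM (-0.09, adjusted p = 0.018), and the HDM call ended under 11 of 22 alternatives, among them without HDM 1 (adjusted p = 0.057), HDM 2 (0.15) or Untreated 2 (0.14). The number lower was 1 with HDM without HDM 1 or HDM 2, 2 with Grass without Grass 2, and 2 with Cat without Untreated 1. The number higher was 1 with HDM without Untreated 2, 1 with Grass without Grass 1 or Untreated 2, and the single Cat call, of the p38 gene Mapk14 (0.10, adjusted p = 0.04), ended without HDM 1, HDM 2, Cat 1, Cat 2 or Untreated 2.

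Inhibitors of RAS-ERK signalling outside the DUSP and Sprouty families fell in part. Of 12 tested, 4 fell with HDM, 5 fell with Grass and 4 fell with Cat. With TMM factors 2 rose with Grass. Lrig1, a membrane inhibitor of receptor tyrosine kinases, averaged 12.4 ± 0.22 with HDM, 10.4 ± 0.067 with Grass and 17.6 ± 0.24 with Cat, against 20.4 ± 1.7 in Untreated cells. It fell by 0.71 with HDM and 0.96 with Grass (each with an SE of 0.07), while its fall with Cat (-0.21, limma adjusted p = 0.036) ended under 12 of 22 alternatives, among them without Cat 1 (0.11), Cat 2 (0.18) or Untreated 1 (-0.13, 0.30). Rasa1, a GTPase-activating protein of RAS, fell by 0.49, 0.49 and 0.14 (each with an SE of 0.03), the Cat call ending with limma without trend and robust settings (adjusted p = 0.091). Rasa2, a relative of Rasa1, fell with Grass (-0.41, SE 0.03) and Cat (-0.21) and did not pass with HDM (-0.06, adjusted p = 0.19). The number lower with Cat was 2 without Cat 1, without Cat 2 and with each of the other scalings.

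Transcripts that ERK is known to induce, a list chosen with earlier results of these data known, were lower with HDM and Grass in most cases. Of 19 tested, 14 fell and 2 rose with HDM, 14 fell with Grass, and 9 fell and 1 rose with Cat, with medians of -0.33, -0.27 and -0.10. Egr1, an immediate early transcription factor, averaged 21.1 ± 0.060 with HDM, 18.0 ± 0.82 with Grass and 37.96 ± 0.037 with Cat, against 53.1 ± 2.8 in Untreated cells, and stood 0.85 lower with HDM than with Cat (SE 0.05, limma adjusted p = 1.4e-11). Plaur, the urokinase receptor, fell by 0.58 with HDM and 0.63 with Grass (each with an SE of 0.04) and was at -0.08 with Cat (adjusted p = 0.13). Phlda1 fell by 0.54 with HDM and 0.92 with Grass (each with an SE of 0.06) and was at -0.04 with Cat (adjusted p = 0.73).

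Not all of these transcripts were lower. Ier3 (0.38, SE 0.04) and Epha2 (0.24) rose with HDM, and the ETS factor genes of the list, often used beside Dusp6 as ERK readouts, were split. Etv1 fell by 0.16 with HDM, by 0.12 with Grass and by 0.18 with Cat, whereas Etv4 and Etv5 were at -0.04 and 0.05 with HDM, 0.02 and 0.03 with Grass, and 0.20 and 0.02 with Cat, none of which passed. HDM was lower than Cat in 11 of the 19 and higher in 1, Grass was lower than Cat in 11, and HDM was higher than Grass in 5 and lower in 1. The number lower with Cat than in Untreated cells was 4 without Cat 2, 5 with limma without trend and robust settings and 3 with DESeq2. HDM was lower than Cat in 7 without Cat 1, in 7 with DESeq2 and in 5 with limma without trend and robust settings. HDM was higher than Grass in 3 without HDM 1 and in 2 without HDM 2 or Grass 2. The 1 transcript lower with HDM than with Grass no longer passed when any of these 4 libraries was left out.

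**Figure D4:**
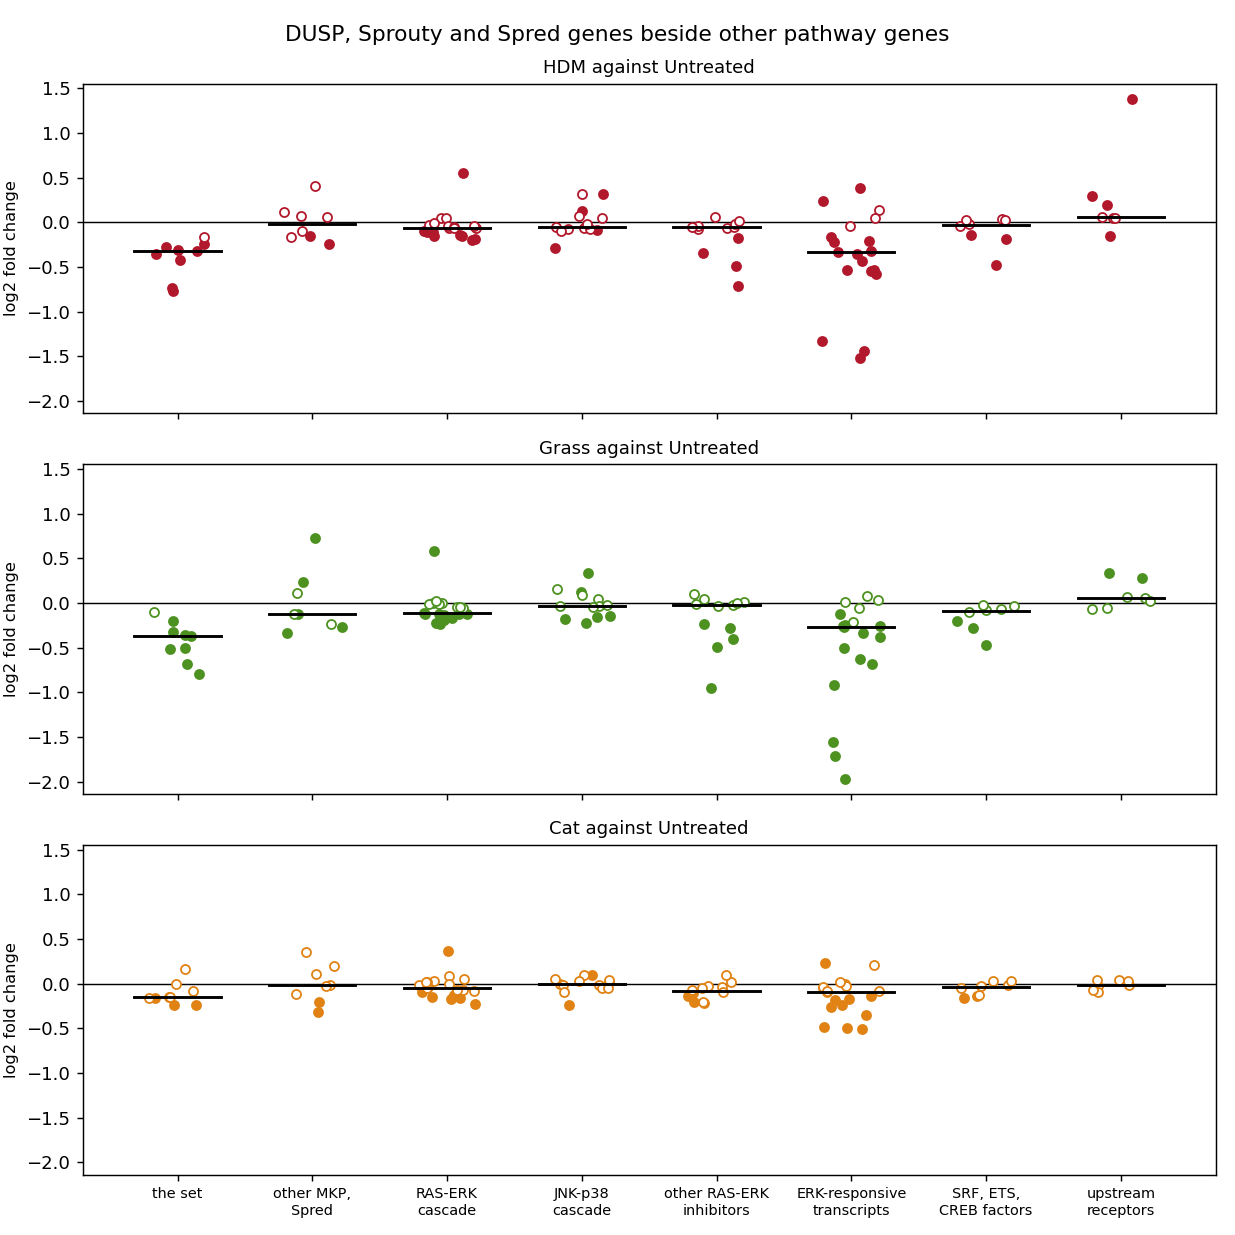
Log2 fold change over Untreated (y axis) of every tested gene of the set and of 7 other lists (x axis), in a panel each for HDM, Grass and Cat, with filled points for calls and a bar at each list's median. The medians of the set are -0.32, -0.37 and -0.15 and those of the ERK-responsive transcripts -0.33, -0.27 and -0.10, while the other medians lie between -0.12 and 0.05.

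Transcription factors that act downstream of ERK, of which 8 were tested, fell in 3 cases with HDM, 3 with Grass and 2 with Cat. Srf, which encodes the serum response factor, averaged 56.9 ± 0.15 with HDM, 57.0 ± 0.044 with Grass and 70.6 ± 1.0 with Cat, against 79.1 ± 1.4 in Untreated cells. It fell by 0.47 with HDM, 0.47 with Grass and 0.16 with Cat (each with an SE of 0.04), the Cat call ending with DESeq2 (adjusted p = 0.069). Ets2 fell by 0.19 with HDM (-0.11 with library totals alone) and 0.28 with Grass (each with an SE of 0.03) and was at -0.03 with Cat (adjusted p = 0.60). Elk1 fell by 0.15 and 0.20 (each with an SE of 0.05), its HDM call ending with the other scalings, without HDM 2 (adjusted p = 0.15) and without Untreated 1 (0.051), and its Grass call with DESeq2 (0.086) and with library totals alone (-0.11, 0.075). The number lower with Cat was 1 without Cat 1, Cat 2 or Untreated 2.

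Receptors that feed the pathway were mostly low or level. Of 16 listed, 9 were below the filter, and of the 7 tested 3 rose and 1 fell with HDM, and 2 rose with Grass. Csf2rb, the shared beta chain of the GM-CSF receptor, averaged 141 ± 1.4 with HDM, 68.3 ± 0.52 with Grass and 55.6 ± 0.015 with Cat, against 53.9 ± 1.2 in Untreated cells (1.38, 0.34 and 0.04, SE 0.04 each), though reads may be split with its near-identical copy Csf2rb2. The microbial receptor genes Tlr2 (0.30) and Tlr4 (0.20) rose with HDM and Tlr2 (0.28) with Grass. With Cat the 3 did not pass (limma adjusted p = 0.45 for Csf2rb, 0.59 for Tlr2 and 0.23 for Tlr4), and Tlr4 was at -0.12 without Untreated 1. With TMM factors Tlr4 rose with Grass too (0.11, adjusted p = 0.04). The number higher with HDM was 5 without Untreated 1, and the gene lower with HDM, Csf2ra, no longer passed with any of the 4 other scalings, with no filter, with edgeR and TMM factors, with DESeq2, with limma without trend and robust settings, with only the 4 libraries compared, or without HDM 2 or Untreated 1.

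The authors' deposited tables of changed genes, which hold no fold below 1.5, list Dusp7 and Spry4 with HDM and with timothy grass and none of the 10 genes with Cat. The authors' deposited folds are signed and linear, and for HDM they were -1.66 for Dusp7 (deposited FDR 3.6e-63) and -1.65 for Spry4 (6.6e-10). For timothy grass the authors' deposited table gave -1.56 for Dusp7 (deposited FDR 7.4e-50) and -1.70 for Spry4 (2.1e-11). In the fit reported here, the changes of the other tested members against Untreated stayed under a fold of 1.5.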

How the data were processed

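RNA of 8 DC2.4 libraries was sequenced after a stranded, mRNA-enriched library preparation (labels' protocols). Build mm9 and the tools RSEM 1.2.15, Bowtie2 2.1.0 and edgeR were used in roles not given in the sources used here, per the submitters' processing notes. The deposited table of all genes is called raw counts, but the authors' values are a depth-scaled signal: 100% of them were whole reads times 1 constant per library (tolerance 1e-06 of a read), from which reads were recovered. The authors' 3 other tables hold, for changed rows, a deposited fold with its sign, p-value and FDR.

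The values, as log2(value + 0.1), were tested with limma 3.58.1 (R 4.3.3, trend and robust settings, all 8 libraries in 1 fit with 4 residual degrees of freedom). Fold changes are therefore on the log2(value + 0.1) scale, which understates those of low genes. Rows with a value of at least 0.5 in at least 2 libraries were tested (11455 of 24054), with Benjamini-Hochberg adjustment within each of 6 comparisons and no fold minimum. edgeR 4.0.16 and DESeq2 1.42.0 were run on recovered reads as alternatives, among 22 settings, and with the deposited scaling edgeR called 2515 rows lower and 1045 higher with HDM, 2939 and 1212 with Grass, and 1542 and 473 with Cat. The fit was tested on simulated data. Depth of 31.94 to 43.32 M reads limits the precision of low genes such as Spry4, and read intervals would cover counting error only. Libraries of a group differed by more than counting noise (chi-square per row with a mean of 2.26 to 4.54 and a median of 0.711 to 1.14). No pair was therefore taken for repeat deposits of 1 library, which does not show separate cultures. The mean and median were highest in the Untreated pair (4.54 and 1.14), the reference for the falls with each extract. In the extract groups the means were 2.26 to 3.07 and the medians 0.711 to 0.782. Same-numbered libraries of different groups did not deviate together (r of deviations -0.08 to 0.13), so numbers were not used as pairs.

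The members and gene lists were chosen with earlier results of these data known. All 10 members are named, with up to 3 genes of each other list (smallest p among those called against Untreated) and the 3 rows most like each of the 4 called members whose group means spanned most, of which 1 is not reported here. Etv1, Etv4, Etv5, Ier3, Epha2, Mapk14, Csf2ra, Ptprc, Irf8 and Cd40 fall outside it and were picked with their values in view. Coordinates are given only for RefSeq sequences of build GRCm38.p6, and lengths come from GENCODE M21, since no mm9 annotation was used here.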

Additional observations from a re-analysis of the deposited data

Results flagged for a closer look

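Dusp2, the nuclear phosphatase of activated blood cells, lay on opposite sides of the Untreated libraries at the deposited scaling. All 4 HDM and Grass libraries, at 11.96 to 13.1, lay below both Untreated libraries at 13.4, and both Cat libraries, at 15.3 and 14.7, lay above them. The difference itself was tested between extracts and was -0.324 on the log2 scale for HDM against Cat (limma adjusted p = 0.004) and -0.257 for Grass against Cat (adjusted p = 0.019), each with an SE of 0.07. No extract passed against Untreated in the same fit, and with library totals alone the Grass value against Untreated was -0.01. The call for HDM against Cat ended without Cat 1 (adjusted p = 0.072) and with DESeq2 (0.091). The call for Grass against Cat ended with DESeq2 (0.22), with limma without trend and robust settings (0.057) and without Grass 1 (0.22), Cat 1 (0.15) or Cat 2 (0.068). No other of the 9 tested genes was flagged. Groups of 2 libraries are too small for a search for single outlying libraries.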

How the results depend on the processing

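Each of the 9 tested genes was refitted in 6 comparisons under 22 alternatives, which gave 1188 values. Of these, 1130 kept their side of the threshold, 37 lost a call and 21 gained one. None of the called values changed sign, and 16 uncalled ones did. The number of the 9 genes higher with Cat than in Untreated cells was 1 with library totals alone as the scaling, an alternative added after the data were seen, against 0. The number lower with Cat was 1, and the number lower with Grass than with Cat was 3, with limma without trend and robust settings, against 4 and 6. The number higher with HDM than with Grass was 3 in a fit of only the 4 libraries compared, and 0 to 3 when 1 library was left out. The cause was not tested. A limma fit with a replicate block gave 8 genes lower with HDM, 8 with Grass and 4 with Cat, as without it, and added Dusp6 for Grass against Cat (-0.207, adjusted p = 0.049). No scaling moved the median of all rows by more than 0.09 on the log2 scale. With 2 libraries a group, the spread of each gene rests on 4 residual degrees of freedom and on that of other rows, and Spry1, with 1 read in all, could not be compared at this depth.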
